A study of Bos taurus with 30 samples.

Results

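The genes described here encode mitochondrial ribosomal proteins and the protein translocases of the mitochondrial membranes. They were taken as all genes whose symbol in the platform annotation starts with MRPL, MRPS, TIMM or TOMM, and each gene was read from its probe set of highest mean signal. That gave 85 of 9155 named genes: 43 MRPL genes named for the large ribosomal subunit, 24 MRPS genes named for the small subunit, 11 TIMM genes for the inner membrane import machinery and 7 TOMM genes for the outer membrane import machinery. No filter on low signal was applied, so all 85 were tested.

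Whole corpora lutea were taken from Angus crossbred heifers, and the RNA of 30 of them, 5 per group in 6 groups, was hybridized to Affymetrix bovine arrays, 1 array per sample. The day 11 groups were mid-cycle corpora lutea at 0 h (saline control), at 4 h and at 24 h after prostaglandin F2α (PGF2α), and the day 4 groups were early corpora lutea at the same 3 times. PGF2α is the hormone that ends the life of the corpus luteum, the transient gland that secretes progesterone, and the early gland is known to resist it. Values are log2 signals as deposited by the authors, so a difference of 1 is a 2-fold change. Differences carry the standard error (SE) of a limma fit to all 30 arrays, and a gene was called at a Benjamini-Hochberg adjusted p under 0.05, adjusted over 24016 probe sets within each comparison.

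Mitochondria translate the few messages of their own genome, all for subunits of the respiratory chain and ATP synthase, on ribosomes whose proteins are encoded in the nucleus and imported. Import runs through the TOM complex of the outer membrane, then through the TIM23 complex for proteins with a cleavable presequence or, with the help of small TIM chaperones in the intermembrane space, through the TIM22 complex for carrier proteins. In steroid-secreting cells mitochondria also hold the enzyme that turns cholesterol into pregnenolone.

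The tissue label was checked against marker lists. The 9 measured luteal steroidogenic markers averaged between 10.87 and 12.49 on every array, whereas the 3 erythrocyte markers averaged between 3.54 and 4.44. The 10 fibroblast and pericyte markers averaged between 10.29 and 11.52, and the 10 endothelial markers between 7.32 and 8.18. Within the endothelial list the lowest member of each group was VWF or KDR, near 4.3. Array medians ran from 6.01 to 6.16. Member signals ran from a mean of 6.91 for MRPS28 to 11.05 for MRPL53 over the 30 arrays, and the median SD within a group was 0.14 for members, against 0.17 for all genes. One array, day 11 at 4 h replicate 1, stood apart in the control probe sets for elongation factor 1 alpha (3′ minus 5′ signal of -1.40, the other 4 arrays of its group running from -2.46 to -2.28). In the control probe sets for GAPDH the same measure was 0.09 on that array, against 0.35 to 0.61 on the others of its group. Day 11 at 0 h replicate 1 was low for GAPDH as well, at 0.22 against 0.40 to 0.50 on the others of its group.

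The members differed first of all between the 2 ages of gland before any PGF2α. On day 11 at 0 h, 67 of the 85 were lower than on day 4 at 0 h and 1, TOMM5, was higher, with a median log2 difference of -0.45 against -0.02 over all genes. Over all 9155 genes 26.5% were called lower and 17.9% higher. The 5 arrays of day 11 lay wholly below the 5 of day 4 for 51 members, where 20.4% of all genes did so. Lower calls came from each family: 33 of 43 MRPL, 19 of 24 MRPS, 9 of 11 TIMM and 6 of 7 TOMM genes. In bulk tissue such a difference cannot tell fewer cells of a type from less RNA per cell.

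**Figure D1:**
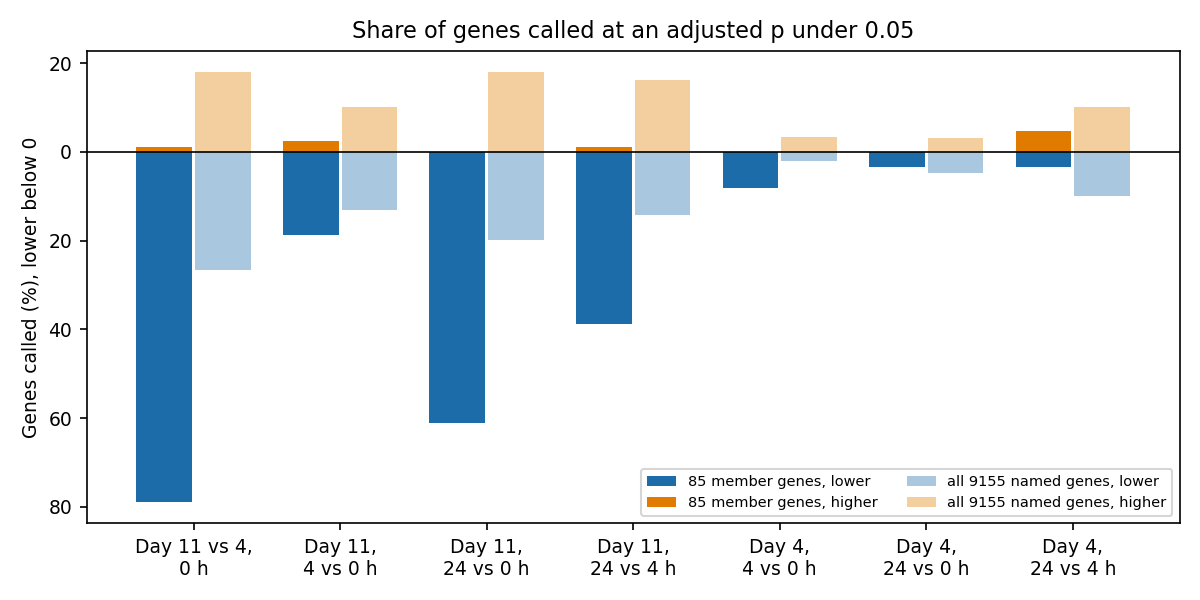
Percent of genes called at an adjusted p under 0.05 in each comparison (x axis), higher above 0 and lower below 0, with the 85 members as dark bars left of all 9155 named genes as pale bars. The dark lower bars exceed the pale ones most for day 11 against day 4 at 0 h and for day 11 at 24 h against 0 h, and stay short for day 4 at 24 h.

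The small TIM chaperones, which carry hydrophobic proteins across the intermembrane space, were lower on day 11 in all 5 cases, with no overlap of the arrays for any of them and a median of -0.82. TIMM13, which forms a hexamer with TIMM8A, had signals of 8.74, 9.07, 9.08, 8.95 and 9.04 on day 11 at 0 h, against 10.26, 9.85, 10.10, 10.20 and 10.39 on day 4 at 0 h. Every day 11 array lay below every day 4 array, and the difference was the largest fall among the members (-1.18 ± 0.11, adjusted p = 5.71e-09; 2.27-fold lower). TIMM10, which pairs with TIMM9 in the chaperone that serves the TIM22 complex, read 8.02, 8.35, 8.37, 8.18 and 8.15 on day 11 and 9.28, 8.75, 9.15, 9.25 and 9.45 on day 4 (-0.96 ± 0.12, adjusted p = 4.57e-07). Its partner TIMM9 was lower by a smaller amount (-0.65 ± 0.10, adjusted p = 5.89e-06). TIMM8B had 9.41, 9.83, 9.58, 9.62 and 9.49 on day 11 and 10.34, 10.39, 10.51, 10.47 and 10.34 on day 4 (-0.82 ± 0.11, adjusted p = 9.37e-07), and its paralogue TIMM8A, the product mutated in human deafness-dystonia syndrome, was also lower (-0.70 ± 0.12, adjusted p = 3.84e-05). Both paralogues lay wholly below their day 4 arrays.

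Among the translocases, TIMM22, the channel for carrier proteins, was lower on day 11 (-0.70 ± 0.12, adjusted p = 2.61e-05), and so was TIMM23, the presequence channel (-0.65 ± 0.09, adjusted p = 3.89e-06). TIMM50, the receptor of that channel, and TIMM44, which tethers its motor, were lower with -0.48 and -0.51. TIMM17B and TIMM21 were not called, with -0.08 and -0.11. In the outer membrane TOMM40, the pore itself, read 8.73, 8.95, 8.72, 8.46 and 8.68 on day 11 and 9.53, 9.17, 9.53, 9.64 and 9.71 on day 4 (-0.81 ± 0.12, adjusted p = 6.01e-06). The receptors TOMM22 and TOMM70 and the small subunits TOMM6 and TOMM7 were called lower, with -0.29, -0.37, -0.50 and -0.22. TOMM34, a cytosolic co-chaperone that hands proteins to the pore, was called lower at -0.52, the least precisely measured of the family with an SE of 0.18. Its dimmer probe sets gave -0.31 and -0.32 and were not called. TOMM5, a small subunit of the pore, went the other way, as described further on.

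Among the MRPS genes, a family defined here by symbol only, the differences were widest for MRPS28, MRPS14 and MRPS5. MRPS28 read 6.21, 7.01, 6.71, 6.24 and 6.57 on day 11 and 7.62, 7.45, 7.66, 7.78 and 7.47 on day 4 (-1.05 ± 0.13, adjusted p = 5.04e-07), and another probe set of the gene gave -0.93. MRPS14, a protein of the subunit head with a bacterial counterpart, read 10.03, 10.43, 10.36, 10.42 and 10.33 on day 11 and 11.48, 11.12, 11.09, 11.04 and 11.48 on day 4 (-0.93 ± 0.10, adjusted p = 7.36e-08), and its other probe set gave -1.03. Neither pair of groups overlapped. MRPS5, which has a bacterial counterpart near the messenger entry, had a difference of -0.87 ± 0.10, adjusted p = 2.58e-07. The paralogues MRPS18A and MRPS18B, which are built into different places of the mammalian mitoribosome, gave -0.39 and -0.45, both called lower. The 5 MRPS genes not called were MRPS9, MRPS27, MRPS31, MRPS35 and MRPS36, with -0.14, -0.15, -0.21, -0.13 and -0.28. For MRPS9 and MRPS35 another probe set of the gene was called lower (-0.35 and -0.50).

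In the large subunit MRPL36, a small protein with a bacterial counterpart, read 8.12, 8.57, 8.58, 8.46 and 8.45 on day 11 and 9.13, 9.18, 9.30, 9.51 and 9.55 on day 4 (-0.90 ± 0.12, adjusted p = 1.35e-06). MRPL52, which has no bacterial counterpart, read 8.24, 8.53, 8.71, 8.86 and 8.60 on day 11 and 9.28, 9.50, 9.46, 9.62 and 9.30 on day 4 (-0.84 ± 0.10, adjusted p = 1.86e-07). Day 11 replicate 1 was the lowest array of its group for both genes. Of the 25 MRPL genes whose low numbers follow those of bacterial ribosomal proteins 21 were lower (median -0.38), and of the 18 with higher numbers 12 were (median -0.43). MRPL10, MRPL49 and MRPL13 showed the smallest differences among the 10 MRPL genes not called, with 0.02, -0.06 and -0.07.

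Of 79 respiratory chain and ATP synthase subunits, taken by symbol, 34 were lower and 6 higher in the same comparison (median -0.16). Of 65 cytosolic ribosomal proteins 21 were lower, with a median of -0.08. All 5 measured mitoribosomal proteins with other symbols were lower, among them CHCHD1 (-0.61 ± 0.10) and PTCD3 (-0.55 ± 0.13), both of the small subunit. Of 20 mitochondrial translation factors 7 were lower, including NSUN4, an rRNA methyltransferase of ribosome assembly (-0.97 ± 0.11), and GFM2, a ribosome recycling factor (-0.96 ± 0.21). Among 19 other import, processing and folding genes 5 were lower and 4 higher, with CHCHD4, the intermembrane space oxidoreductase that folds small TIMs, at -0.74 ± 0.12; the share lower, 26.3%, was near the 26.5% of all genes. Of 19 genes of mitochondrial DNA and transcription 10 were lower and 1 higher. The cell type lists moved as well: 6 of 9 luteal steroidogenic markers, 5 of 9 macrophage and 5 of 8 lymphocyte markers were higher on day 11, and so were 6 of 10 endothelial ones. Lower on day 11 were 2 of 3 neutrophil markers and 5 of 10 fibroblast and pericyte markers, of which 3 others were higher. The mean of the luteal markers was 12.29 to 12.49 on the day 11 arrays and 11.76 to 12.04 on the day 4 arrays, and that of the macrophage markers 7.97 to 8.73 and 7.03 to 7.22. That of the neutrophil markers was 5.91 to 6.71 on day 11 and 6.74 to 8.10 on day 4. Their part in the members' difference was not tested.

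**Figure D2:**
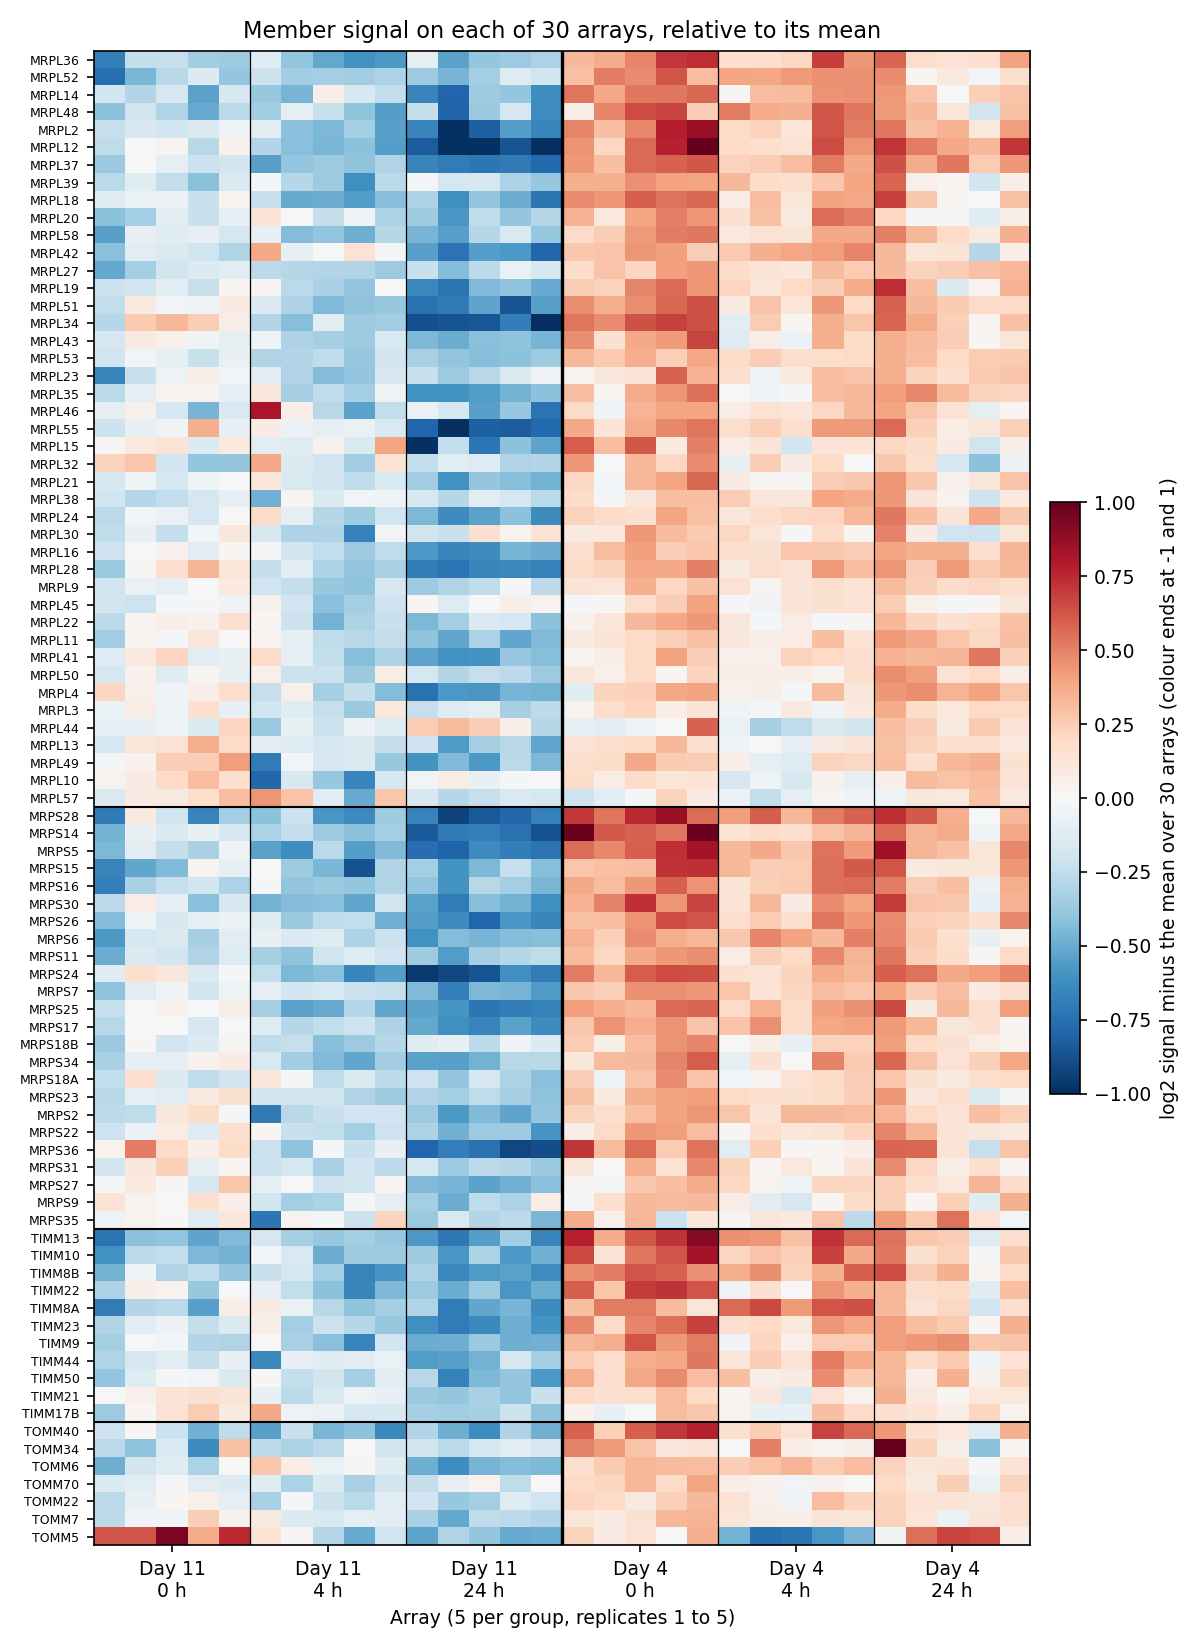
Log2 signal of each of the 85 members (rows, by family and then by the difference between days at 0 h) on each of 30 arrays (columns), minus its mean over the arrays. Day 11 arrays at 0, 4 and 24 h stand left of day 4 arrays, most rows are blue on day 11 and red on day 4, and the bottom row, TOMM5, is red on day 11 at 0 h.

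At 24 h after PGF2α on day 11 most members were lower than at 0 h. Of the 85 members 52 were called lower and 0 higher (59 and 0 at an unadjusted p under 0.05), with a median of -0.32 against -0.01 over all genes. Of all genes 20.0% were called lower and 17.9% higher (24.4% and 22.1% at an unadjusted p under 0.05). For 41 members the arrays at 24 h lay wholly below those at 0 h, a pattern found in 14.4% of all genes. This comparison and the one between the days share the 5 arrays of day 11 at 0 h. By family 26 of 43 MRPL, 17 of 24 MRPS, 6 of 11 TIMM and 3 of 7 TOMM genes were lower.

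The largest fall of a translocase gene was that of TOMM5, with 7.24, 7.47, 7.38, 7.27 and 7.28 at 24 h against 8.40, 8.40, 8.71, 8.14 and 8.52 at 0 h (-1.10 ± 0.13, adjusted p = 1.40e-07; 2.15-fold lower). Every array at 24 h lay below every array at 0 h. MRPS36 had 8.75, 8.86, 8.80, 8.64 and 8.66 at 24 h and 9.58, 10.06, 9.74, 9.60 and 9.73 at 0 h (-1.0 ± 0.12, adjusted p = 2.79e-07; 2.00-fold lower). Although named for the small subunit, MRPS36 is known as KGD4, a subunit of the 2-oxoglutarate dehydrogenase complex of the citric acid cycle. MRPS24, the mitochondrial form of the universal protein S3, had 7.82, 7.86, 7.91, 8.16 and 8.07 at 24 h and 8.65, 8.93, 8.89, 8.63 and 8.75 at 0 h (-0.81 ± 0.09, adjusted p = 3.20e-08). The 2 groups were fully apart for all 3 genes.

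Of the large subunit, MRPL34 had 8.33, 8.34, 8.36, 8.52 and 8.15 at 24 h and 8.93, 9.47, 9.54, 9.46 and 9.27 at 0 h (-0.99 ± 0.11, adjusted p = 4.69e-08; 1.99-fold lower). MRPL12, which forms the flexible stalk that recruits translation factors, had 8.97, 8.70, 8.79, 8.94 and 8.79 at 24 h and 9.55, 9.80, 9.83, 9.53 and 9.84 at 0 h (-0.87 ± 0.13, adjusted p = 4.37e-06). MRPL55 had 8.79, 8.57, 8.76, 8.75 and 8.80 at 24 h and 9.37, 9.51, 9.55, 9.95 and 9.50 at 0 h (-0.84 ± 0.10, adjusted p = 1.53e-07). None of these groups overlapped. MRPL28 (-0.74 ± 0.10, adjusted p = 6.39e-07) and MRPL4, a protein of the exit tunnel (-0.66 ± 0.09, adjusted p = 2.66e-06), completed the 8 members with the largest falls. Of the 25 MRPL genes with numbers as in bacteria 18 were lower, and of the 18 with higher numbers 8, with medians of -0.39 and -0.24. Whether these classes differed was not tested.

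Among the import genes calls were mixed within complexes, and no complex was tested against another. In the TIM23 complex TIMM21, TIMM23, TIMM17B and TIMM50 were lower, with differences of -0.43, -0.44, -0.36 and -0.33, and TIMM44 was not called (-0.24). TIMM22 was lower (-0.34 ± 0.12, adjusted p = 0.0285). Of the small TIMs, which had the widest differences between the days, TIMM9 alone passed at 24 h (-0.27 ± 0.10, adjusted p = 0.0343), and TIMM13 read 8.91, 8.77, 8.93, 9.13 and 8.82 at 24 h and 8.74, 9.07, 9.08, 8.95 and 9.04 at 0 h, with a 95% interval of -0.29 to 0.16 for the difference. TOMM6 and TOMM7 were lower (-0.27 and -0.32), whereas TOMM22, TOMM40, TOMM70 and TOMM34 were not called. For TOMM70, the receptor for carrier proteins, the difference was -0.00 with a 95% interval of -0.15 to 0.14. MRPL44, whose ribonuclease III fold sits by the exit tunnel, had the highest difference of the members and was not called (0.15 ± 0.12, adjusted p = 0.391).

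**Figure D3:**
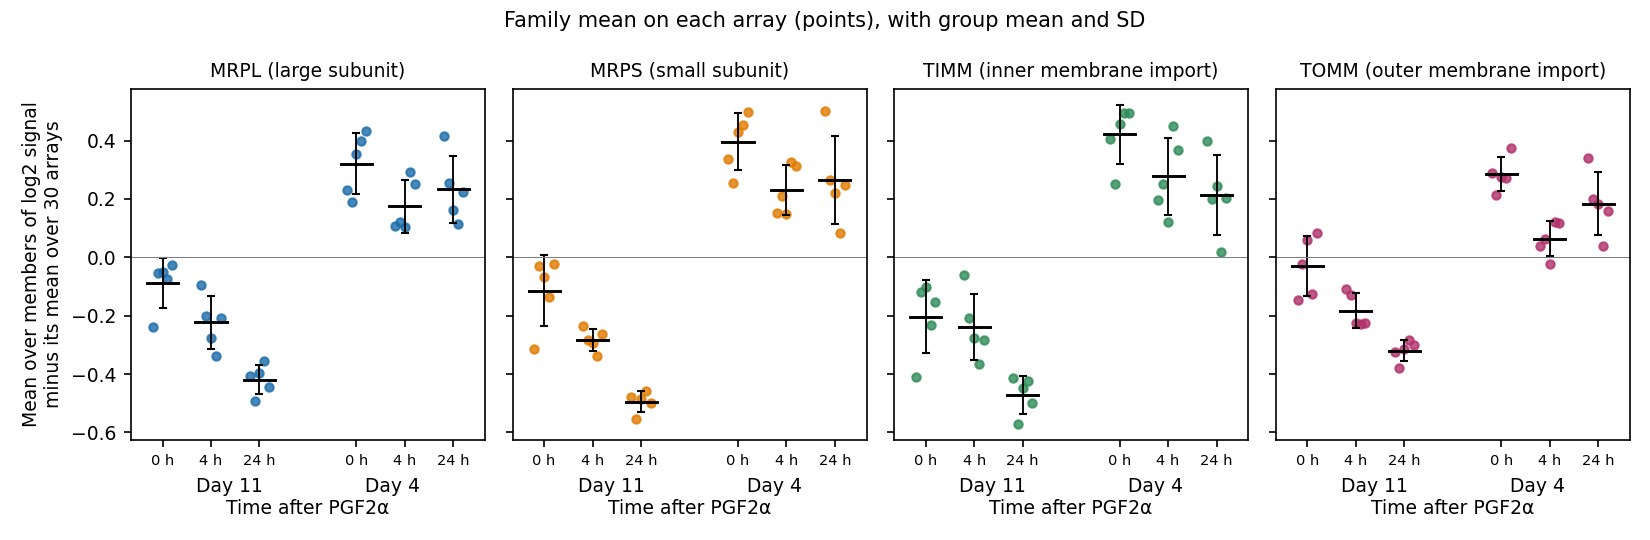
Mean over the members of each family of log2 signal minus the gene's own mean over 30 arrays (y axis), 1 point per array, at 0, 4 and 24 h on day 11 (left in each panel) and day 4 (right), with bars for group mean and SD (n = 5). The MRPS mean at 24 h on day 11 sits between -0.55 and -0.46, and the day 4 arrays stay above 0 in every family except 1 TOMM array at 4 h.

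Averaged over all 85 members, each centred on its own mean, the arrays of day 11 stood at -0.11 ± 0.10 at 0 h, -0.24 ± 0.07 at 4 h and -0.44 ± 0.05 at 24 h (mean ± SD, n = 5 each). Those of day 4 stood at 0.35 ± 0.10, 0.20 ± 0.09 and 0.24 ± 0.13 at the same times. The day 11 arrays at 24 h ran from -0.51 to -0.39 and those at 0 h from -0.27 to -0.03, so they did not overlap, while on day 4 the arrays at 24 h ran from 0.09 to 0.43 and those at 0 h from 0.22 to 0.45. The lowest array of day 11 at 0 h was replicate 1, and the highest of day 4 at 24 h was replicate 1 as well.

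Other lists of mitochondrial genes are set here against the 20.0% of all genes lower at 24 h on day 11. Of 79 respiratory chain and ATP synthase subunits 73 were lower (median -0.47), whereas 1 of 65 cytosolic ribosomal proteins was (median -0.03). Of 19 further import, processing and folding genes 12 were lower, among them MTX1, a metaxin of the outer membrane (-1.41 ± 0.12), and the matrix chaperonins HSPE1 (-0.87 ± 0.07) and HSPD1 (-0.70 ± 0.06). Of 20 translation factors 7 were lower and 1 higher, with the elongation factor TUFM at -0.75 ± 0.11, and 6 of 15 mitochondrial tRNA synthetases were lower, NARS2 the most (-0.73 ± 0.12). Among 19 genes of mitochondrial DNA and transcription 5 (26.3%) were lower, a share near that of all genes, with TEFM, the transcription elongation factor, at -0.68 ± 0.11. In the list of biogenesis regulators 4 of 8 were higher, including MYC (0.95 ± 0.14), and SIRT3, the matrix deacetylase, was lower (-1.06 ± 0.14).

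Cell type markers moved in the same comparison. Luteal steroidogenic markers were lower for 8 of 9, HSD3B1, which makes progesterone, at -2.32 ± 0.19, and their array mean was 10.87 to 11.46 at 24 h and 12.29 to 12.49 at 0 h. Macrophage markers were higher for 6 of 9, with an array mean of 9.73 to 10.45 at 24 h and 7.97 to 8.73 at 0 h. Lymphocyte markers were higher for 6 of 8 (5.60 to 6.23 and 4.86 to 5.09) and neutrophil markers for 3 of 3 (8.88 to 10.68 and 5.91 to 6.71). Of 10 endothelial markers 4 were lower and 1 higher, and of 10 fibroblast and pericyte markers 2 were higher. How far these changes in cell type markers entered the fall of the members was not tested.

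On day 4 few members were called at 24 h. Against 0 h, 3 members were lower and 0 higher, which is 3.53% lower against 4.73% of all genes (3.03% were higher). At an unadjusted p under 0.05, 22 members were lower and 0 higher, and 13.2% of all genes were lower. The median of the members was -0.12 and that of all genes 0.00. The 2 groups were wholly apart for 0 members, and for 2.85% of all genes in the lower direction. TIMM13 had 10.02, 9.76, 9.73, 9.36 and 9.65 at 24 h and 10.26, 9.85, 10.10, 10.20 and 10.39 at 0 h (-0.46 ± 0.11, adjusted p = 0.0128). MRPS14 had 11.07, 10.84, 10.87, 10.46 and 10.88 at 24 h and 11.48, 11.12, 11.09, 11.04 and 11.48 at 0 h (-0.42 ± 0.10, adjusted p = 0.0144), and TIMM22 had 8.03, 7.87, 7.89, 7.57 and 8.0 at 24 h and 8.30, 7.97, 8.40, 8.42 and 8.32 at 0 h (-0.41 ± 0.12, adjusted p = 0.0363). Each pair of groups shared part of its range. The next smallest p, for MRPL20, missed the threshold (-0.33 ± 0.10, adjusted p = 0.0531), but 7 of 19 alternatives called it, and the other probe set of the gene was called lower (-0.39, adjusted p = 0.0214). Leaving out day 4 at 24 h replicate 1, the array nearest to those at 0 h, raised the count to 13 lower, and leaving out replicate 4 of the same group left 0. Without day 4 at 0 h replicate 1 it was 1, and without replicate 2 of that group 6. MRPS14 and TIMM22 were called at 24 h on both days, which is 66.7% of the day 4 calls and 3.85% of the day 11 calls. For reference, 52 of all 85 members were lower at 24 h on day 11, and 3 on day 4. Whether the overlap went beyond those shares was not tested. Luteal steroidogenic markers were higher at 24 h for 3 of 9, with an array mean of 12.15 to 12.30 at 24 h and 11.76 to 12.04 at 0 h, and their part in these values was not tested.

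The difference between the days in the 24 h response was tested directly as an interaction, the day 11 response minus the day 4 response. It was called negative for 24 members and positive for 1, at a median of -0.22 against 0.01 over all genes, where 15.0% were called negative and 14.8% positive. MRPL genes made up 17 of the 24, with 5 MRPS, 1 TIMM (TIMM21) and 1 TOMM gene. TOMM5 had the largest interaction (-1.32 ± 0.19, adjusted p = 4.81e-06). MRPL4 had -0.66 on day 11 and 0.16 on day 4 (-0.82 ± 0.13, adjusted p = 3.43e-05). MRPS36 (-0.79 ± 0.18, adjusted p = 0.00124), MRPL12 (-0.77 ± 0.18, adjusted p = 0.00208) and MRPS24 (-0.74 ± 0.12, adjusted p = 5.04e-05) followed. MRPL52 was the 1 positive case, with 0.10 on day 11 and -0.30 on day 4 (0.40 ± 0.14, adjusted p = 0.0363), and neither response was itself called. That call was lost when any 1 of 10 arrays was left out (day 11 at 0 h replicates 1 and 2, day 11 at 24 h replicates 4 and 5, day 4 at 0 h replicates 2, 3 and 4, day 4 at 24 h replicates 2, 3 and 4), and there were 3 positive calls without day 4 at 24 h replicate 1. No small TIM passed this test, the widest being TIMM13 (0.39 ± 0.15, adjusted p = 0.068). For comparison, 67 of 79 respiratory chain subunits and 0 of 65 cytosolic ribosomal proteins had a negative interaction. Luteal steroidogenic markers did so for 8 of 9, and macrophage markers had a positive one for 4 of 9.

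**Figure D4:**
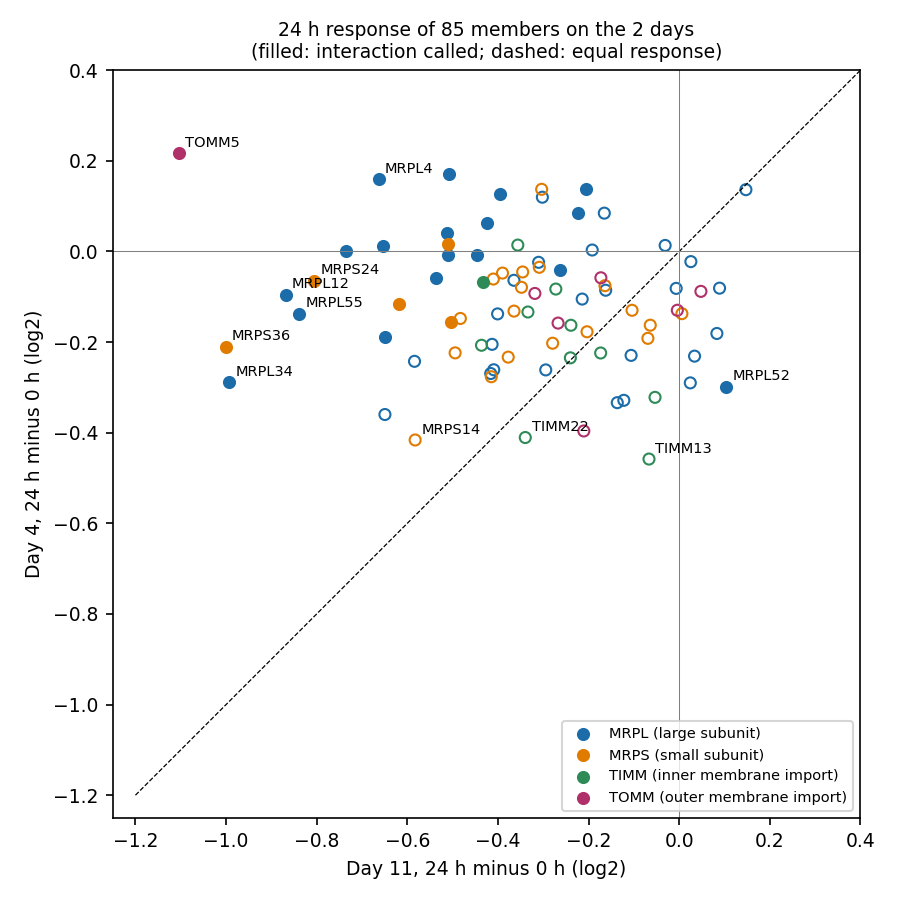
Log2 difference of 24 h minus 0 h on day 11 (x axis) and on day 4 (y axis) for the 85 members, coloured by family; filled points have a called interaction and the dashed line marks equal responses. TOMM5 lies far left and above 0 on the day 4 axis, MRPS36 and MRPL34 lie near -1 on day 11, and TIMM13 lies near 0 on day 11 and lowest on day 4.

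At 4 h on day 11, 16 members were lower than at 0 h and 2 were higher (median -0.13), with 13.1% of all genes lower and 10.1% higher, so the share of members called lower, 18.8%, was near that of all genes. Arrays were wholly lower for 10 members and for 6.76% of all genes. Luteal steroidogenic markers were lower for 3 of 9, with an array mean of 11.92 to 12.14 at 4 h and 12.29 to 12.49 at 0 h. Neutrophil markers were higher for 3 of 3, at 7.46 to 10.11 and 5.91 to 6.71. Neither list overlapped between the groups, and their part in the members' differences was not tested. TOMM5 had 7.91, 7.78, 7.48, 7.27 and 7.57 at 4 h and 8.40, 8.40, 8.71, 8.14 and 8.52 at 0 h (-0.83 ± 0.13, adjusted p = 3.75e-05). MRPL10, which anchors the stalk formed by MRPL12, had 7.94, 8.57, 8.35, 8.07 and 8.55 at 4 h and 8.76, 8.81, 8.92, 9.04 and 8.90 at 0 h (-0.59 ± 0.09, adjusted p = 3.75e-05). Neither gene's groups overlapped, and replicate 1 at 4 h was the lowest array for MRPL10. MRPL49 (-0.47 ± 0.11, adjusted p = 0.002), MRPS24 (-0.46 ± 0.09, adjusted p = 0.000365), MRPL34 (-0.43 ± 0.11, adjusted p = 0.00622) and MRPS25 (-0.41 ± 0.09, adjusted p = 0.0017) were lower as well. Without day 11 at 0 h replicate 5 the count of lower members was 10. MRPL18, which in human cells binds 5S rRNA, and MRPS36 were lower, at -0.35 and -0.38. The call of MRPS36 was lost without day 11 at 0 h replicate 2, 3 or 5 or day 11 at 4 h replicate 1, 2 or 4 (adjusted p up to 0.107).

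MRPL42 and TOMM6 were the 2 members that were higher at 4 h on day 11. MRPL42 had 9.94, 9.47, 9.56, 9.70 and 9.55 at 4 h and 9.14, 9.45, 9.41, 9.36 and 9.25 at 0 h (0.32 ± 0.10, adjusted p = 0.0188), with no overlap. TOMM6 had 11.27, 11.07, 10.92, 11.00 and 10.87 at 4 h and 10.51, 10.81, 10.87, 10.67 and 10.99 at 0 h (0.26 ± 0.08, adjusted p = 0.0219), with an overlap. For both the highest value belonged to replicate 1 at 4 h, and neither call held without that array or without replicate 1 at 0 h, nor, for TOMM6, without replicate 4 at 0 h (adjusted p up to 0.0948 for MRPL42 and 0.199 for TOMM6 over the alternatives tried). Both then fell, with MRPL42 at -0.73 ± 0.10, adjusted p = 1.41e-06 and TOMM6 at -0.53 ± 0.08, adjusted p = 1.13e-05 for 24 h against 4 h.

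Over that later interval on day 11, 33 members were lower at 24 h than at 4 h and 1 was higher, with 14.3% of all genes lower and 16.2% higher. For 30 members the arrays were wholly lower, a pattern found in 9.94% of all genes. Luteal steroidogenic markers were lower for 6 of 9 (array mean 10.87 to 11.46 at 24 h and 11.92 to 12.14 at 4 h) and macrophage markers higher for 4 of 9, and their part was not tested. MRPL55, not called at 4 h (-0.05 against 0 h), fell in this interval (-0.79 ± 0.10, adjusted p = 7.51e-07). MRPL15 (-0.62 ± 0.13, adjusted p = 0.000747), MRPS36 (-0.62 ± 0.12, adjusted p = 0.000364), MRPL34 (-0.56 ± 0.11, adjusted p = 0.000314), MRPL12 (-0.54 ± 0.13, adjusted p = 0.00224) and MRPS14 (-0.44 ± 0.10, adjusted p = 0.00167) fell as well. MRPL10 was the 1 member that was higher (0.42 ± 0.09, adjusted p = 0.00104), with 8.70, 8.81, 8.66, 8.71 and 8.73 at 24 h, all above its 5 arrays at 4 h. Without day 11 at 4 h replicate 1 or 5, or day 11 at 24 h replicate 5, there were 2 higher calls. For TOMM5 the later interval brought -0.28, not called.

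On day 4 at 4 h, 7 members were lower than at 0 h and 0 higher, with a median of -0.13 against -0.02 over all genes. Of all genes 1.99% were lower and 3.29% higher. At an unadjusted p under 0.05, 26 members were lower and 0 higher, and 9.89% of all genes were lower. Of the 3 neutrophil markers 1 was higher, and their array mean was 8.10 to 9.30 at 4 h and 6.74 to 8.10 at 0 h. That of the luteal steroidogenic markers was 11.54 to 11.86 at 4 h and 11.76 to 12.04 at 0 h. For the macrophage markers it was 7.13 to 8.36 and 7.03 to 7.22. The part of these lists in the members' differences was not tested. For 10 members the arrays lay wholly lower, and so did 4.38% of all genes. TOMM5 again led, with 7.30, 7.02, 7.04, 7.19 and 7.31 at 4 h and 7.99, 7.85, 7.91, 7.77 and 8.13 at 0 h (-0.76 ± 0.13, adjusted p = 0.000534). MRPS14 had 10.64, 10.69, 10.66, 10.78 and 10.84 at 4 h and 11.48, 11.12, 11.09, 11.04 and 11.48 at 0 h (-0.52 ± 0.10, adjusted p = 0.00204). MRPL34 (-0.43 ± 0.11, adjusted p = 0.0197) and MRPS36 (-0.43 ± 0.12, adjusted p = 0.0444) were also without overlap. MRPL34 was no longer called without day 4 at 0 h replicate 4 or day 4 at 4 h replicate 1 or 3 (adjusted p up to 0.0885), and MRPS36 without day 4 at 0 h replicate 1, 3 or 5 or day 4 at 4 h replicate 1, 3, 4 or 5 (up to 0.136). TIMM22 (-0.40 ± 0.12, adjusted p = 0.0483), MRPL43 (-0.33 ± 0.10, adjusted p = 0.0424) and MRPS24 (-0.31 ± 0.09, adjusted p = 0.0421) passed only narrowly, and with the replicate number as a block, a fit that called 5 members, these 3 were no longer called (adjusted p of 0.0570 for TIMM22, 0.0572 for MRPL43 and 0.0576 for MRPS24). The count was 2 without day 4 at 4 h replicate 1 or replicate 3, 4 without replicate 2 or replicate 5 of that group, and 3 without day 4 at 0 h replicate 1, 3, 4 or 5. TOMM5, MRPL34, MRPS24 and MRPS36 were lower at 4 h on both days, which is 25% of the 16 calls of day 11 and 57.1% of the 7 of day 4. For reference, 16 of all 85 members were lower at 4 h on day 11, and 7 on day 4. Whether this overlap went beyond those shares was not tested.

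The interaction at 4 h, again day 11 minus day 4, was called for 0 members in either direction by limma. At an unadjusted p under 0.05 there were 3 positive and 2 negative ones among the 85 members, where 6.60% of all genes were positive and 6.78% negative. After adjustment 0.939% of all genes were called positive and 0.459% negative. MRPL10 had the smallest adjusted p among the members (-0.36 ± 0.13, adjusted p = 0.209), with 4 h differences of -0.59 on day 11 and -0.22 on day 4. MRPS14, TIMM13 and TOMM6 followed at 0.37, 0.37 and 0.25, with adjusted p of 0.248, 0.32 and 0.389.

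Between 4 h and 24 h on day 4, 4 members (4.71%) were higher and 3 (3.53%) lower at 24 h, against 10.2% higher and 9.84% lower among all genes. The arrays were wholly lower for 2 members, and for 6.63% of all genes. Luteal steroidogenic markers were higher for 5 of 9 (array mean 12.15 to 12.30 at 24 h and 11.54 to 11.86 at 4 h), and their part was not tested. TOMM5 had 7.73, 8.32, 8.44, 8.42 and 7.84 at 24 h and 7.30, 7.02, 7.04, 7.19 and 7.31 at 4 h (0.98 ± 0.13, adjusted p = 8.06e-06; 1.97-fold higher). MRPL44 (0.40 ± 0.12, adjusted p = 0.0174), MRPL10 (0.31 ± 0.09, adjusted p = 0.0232) and MRPL4 (0.28 ± 0.09, adjusted p = 0.0443) were higher too. Of 19 alternatives 9 lost the call of MRPL4 (adjusted p up to 0.106), 6 that of MRPL10 (up to 0.0661) and 1 that of MRPL44. TIMM8A had 9.75, 9.56, 9.62, 9.23 and 9.58 at 24 h and 9.98, 10.08, 9.84, 10.04 and 10.06 at 4 h (-0.45 ± 0.12, adjusted p = 0.0103), with no overlap, while its paralogue TIMM8B was not called (-0.11). MRPL42 (-0.31) and MRPL20 (-0.30) were lower as well, with the call lost in 5 and 11 of 19 alternatives (adjusted p up to 0.128 and 0.151). Lower calls numbered 7 without day 4 at 24 h replicate 1 and 1 without day 4 at 4 h replicate 4 or 5 or day 4 at 24 h replicate 4. Higher calls numbered 2 without day 4 at 4 h replicate 1 or 3 or day 4 at 24 h replicate 2 or 3.

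TOMM5 was called in 6 of the 9 comparisons. On day 11 its group means were 8.43 ± 0.21 at 0 h, 7.60 ± 0.25 at 4 h and 7.33 ± 0.09 at 24 h, and on day 4 they were 7.93 ± 0.14, 7.17 ± 0.14 and 8.15 ± 0.34 (SD, n = 5 each). At 0 h it was higher on day 11 (0.50 ± 0.13, adjusted p = 0.00359), with every day 11 array above every day 4 array. It was lower at 4 h on both days, and the 4 h responses did not differ detectably between them (interaction -0.07, 95% interval -0.45 to 0.31). At 24 h the day 4 arrays had a mean above that of 0 h (0.22 ± 0.13, adjusted p = 0.436) and the day 11 arrays were at their lowest. One probe set represents TOMM5 on the array, so no second measurement of it was at hand.

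**Figure D5:**
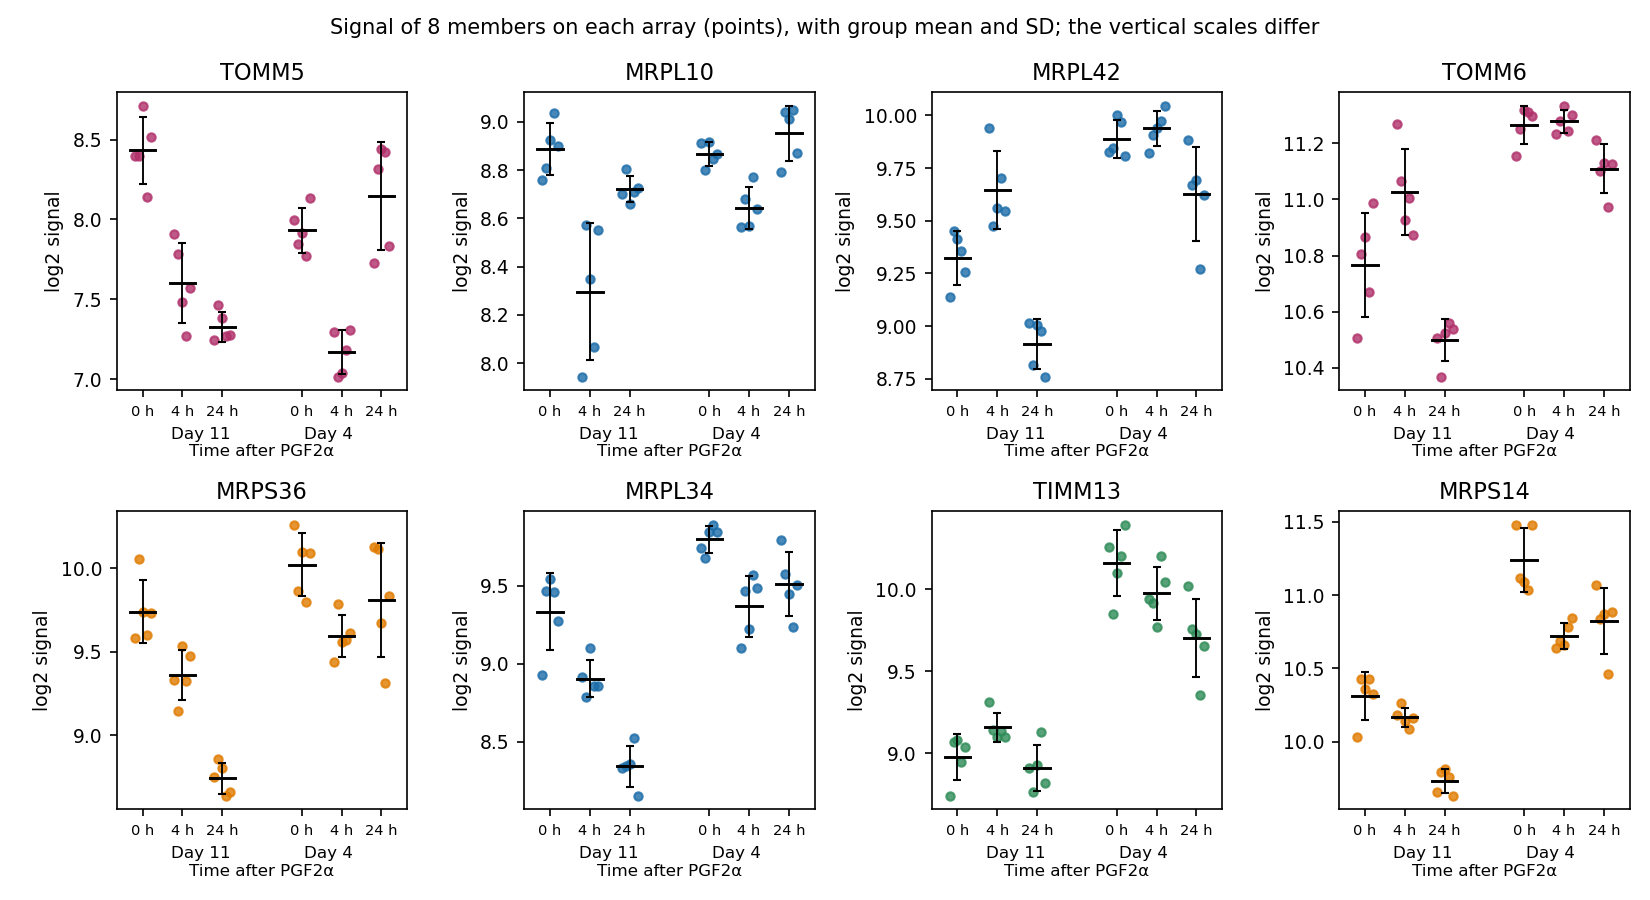
Log2 signal (y axis, scales differ) of TOMM5, MRPL10, MRPL42, TOMM6, MRPS36, MRPL34, TIMM13 and MRPS14 on each array, at 0, 4 and 24 h on day 11 (left) and day 4 (right), with group mean and SD (n = 5). TOMM5 drops at 4 h on both days and is back near 8.15 at 24 h on day 4 only, MRPL10 is lowest at 4 h on day 11, and TIMM13 is near 9 in all 3 day 11 groups.

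Of the 17 members with several probe sets, the dimmer sets gave further values. At 24 h against 0 h on day 11 the other set of MRPL57 was called lower (-0.58) where the one used here was not (-0.30), and those of MRPS14 (-0.47), TIMM22 (-0.47) and MRPL43 (-0.42) were called lower along with the ones used. The second set of MRPS28, as bright as the one used, was not called (-0.37, adjusted p = 0.0621), and of the other sets of MRPS9 1 was called (-0.52) and 1 was not (-0.18). The other sets of MRPL14, MRPS2 and MRPS34, each with a mean signal under 6, were not called. Between the days at 0 h these 3 were not called either (0.26, -0.004 and 0.18), though the sets used were called lower. The same held for MRPL30, whose other set gave 0.02. The other sets of MRPL20, MRPL23, MRPL43, TIMM22 and TOMM70 were called lower between the days along with the ones used. For MRPL39 1 other set was called lower there (-0.57) and 1 was not (-0.22).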

How the data were processed

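RNA of 30 corpora lutea, 5 per group, was measured on Affymetrix GeneChip bovine arrays. The authors deposited log2 signals, 1 per probe set and array, which they made with RMA per the submitters' processing notes; the RMA version is not given in the sources used here. They were used as deposited. RMA normalizes arrays to a common distribution, so a change of total RNA in all genes cannot be seen. The precision is limited by the number of arrays. The p-values set each difference against the spread between arrays within groups, pooled over all groups, which holds differences between heifers along with those of RNA and hybridization.

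Of 24128 probe sets 112 controls were left out. The platform annotation gave 13292 of the 24016 others 1 symbol, 86 several and 10638 none. All 85 members matched RefSeq by Entrez number under the same symbol. Group means of all 30 arrays were fitted in limma 3.58.1 (R 4.3.3) with empirical Bayes moderation (24 residual and 28.2 moderated degrees of freedom), with 9 contrasts and Benjamini-Hochberg adjustment within each. The script was tested on simulated data.

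Members and lists were chosen with earlier results of these data known. Named were, per contrast, up to 8 called members with the largest change in each direction (5 for interactions), the 4 with the smallest p where fewer than 4 were called, family extremes of signal, paralogues, and up to 3 called genes of each list; a few others serve to complete a complex. The 10 alternatives tried were quantile normalization, subtraction of array medians, a filter on dim probe sets, robust moderation along a variance trend, weights per array, a replicate block, arrays of the contrast only, the mean of a gene's probe sets, an adjusted p under 0.01, and leaving out each array.

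Samples were grouped by GEO's labels, which number the replicates 1 to 5 in each group. Deviations from the group means correlated above 0.1 for every same-numbered pair only between day 4 at 4 h and day 4 at 0 h (lowest 0.15, mean 0.18). The numbers were taken to pair these samples, though nothing in the labels says what they share. The main fit left this pairing out, and no fit paired the day 4 samples at 0 h and 4 h alone. Day 11 at 0 h and 4 h came close (lowest 0.06, mean 0.15). There 4 of 5 arrays correlated best with their own number, against 3 of 5 for the day 4 pair. Whether the numbers pair the day 11 samples as well was not settled. Scan dates were not used here.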

Additional observations from a re-analysis of the deposited data

Results flagged for a closer look

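Single arrays that lay far from the other 4 of their group were sought among 168 group values of the 28 named members, by the gap to the nearest other array over the range of the group. Chance flags about 1 in 20 groups, and 10 were found. Day 11 at 0 h replicate 1 was low for MRPL36 (8.12, nearest other array 8.45), MRPS14 (10.03, nearest 10.33) and MRPS25 (7.39, nearest 7.62), and it was also the lowest array of its group in the mean over all members. Day 11 at 4 h replicate 1, the array that stood apart in its control probe sets for elongation factor 1 alpha, was high for TIMM13 (9.31, nearest 9.14). Day 11 at 24 h replicate 2 was low for MRPL55 (8.57, nearest 8.75) and TOMM6 (10.37, nearest 10.51).

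MRPL44 was high on replicate 5 at 0 h on both days, with 8.57 on day 11 (nearest 8.30) and 8.94 on day 4 (nearest 8.35). MRPL15 was low on day 4 at 4 h replicate 3 (7.71, nearest 7.96), and TIMM22 was low on day 4 at 0 h replicate 2 (7.97, nearest 8.30).

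By the interaction test the 24 h response differed between the days for 24 members in the negative direction and for 1 in the positive. Only those with the largest change in each direction are listed here, so the list is not a count of the named members that differed. The day 11 response minus the day 4 response was -1.32 for TOMM5, -0.82 for MRPL4, -0.79 for MRPS36, -0.77 for MRPL12 and -0.74 for MRPS24, and it was 0.40 for MRPL52.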

How the results depend on the processing

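Over 64 results of named members and 1316 alternatives, 1182 kept direction and side of the threshold, 127 lost the call, 7 gained it and 0 reversed. Of 382 alternatives for 18 counts of called members, 323 stayed within 1.5 times. The cause of the other shifts was not tested where the alternative did not use fewer arrays or a stricter threshold. On day 4 at 24 h against 0 h the 3 lower calls became 5 without the dimmest 30% of probe sets, with a variance trend or with the mean of all probe sets, 9 with array weights, 0 with the arrays of the contrast only and 0 at an adjusted p under 0.01. On day 4 at 4 h the 7 lower calls became 12 with array weights, 4 with the arrays of the contrast and 2 at 0.01. On day 11 at 4 h the 2 higher calls became 0 with array weights, 0 with its own arrays and 0 at 0.01, and the 16 lower ones 7 with its own arrays and 6 at 0.01. On day 4 at 24 h against 4 h the 3 lower calls became 5, 1 and 0 under the same 3 alternatives, and the 4 higher ones 1 at 0.01. On day 11 at 24 h against 4 h the 1 higher call became 2 with array weights, and the 33 lower ones 19 at 0.01. The 1 positive interaction at 24 h became 0 with its own arrays and 0 at 0.01.

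Leaving out 1 array at a time gave 46 to 54 lower members on day 11 at 24 h, 59 to 68 for day 11 against day 4, and 20 to 31 negative and 0 to 3 positive interactions at 24 h. The lower calls ran from 0 to 13 on day 4 at 24 h, 2 to 7 on day 4 at 4 h and 10 to 22 on day 11 at 4 h (0 to 2 higher). For 24 h against 4 h they ran from 25 to 34 on day 11 (1 to 2 higher) and 1 to 7 on day 4 (2 to 5 higher). The replicate block fitted 1 effect per replicate number across all 30 arrays of both days. On day 4 at 4 h against 0 h it gave 5 lower calls in place of 7. Beyond that contrast it gave 51 lower members on day 11 at 24 h in place of 52 and 68 on day 11 against day 4 in place of 67; of the other named calls it lost that of MRPL20 on day 4 at 24 h against 4 h.

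The mean signals of all members over the 30 arrays lay above 6.9, and so above the median of every array. Single values could be lower. MRPS28 had a group mean of 6.13 on day 11 at 24 h. Its values on replicates 2 and 3 of that group, 5.99 and 6.07, lay below the medians of those arrays, 6.09 and 6.10. With 5 arrays a group the spread set which small differences passed: between the days TOMM7 was called at -0.22 and MRPS36 was not at -0.28. The data cannot separate a change in the members from a change in the mix of cells.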
